A study of Mus musculus with 48 samples.

Results

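The subject is 9 genes of the complement system, picked by symbol from the 35870 genes of the count table: C1qa, C1qb, C1qc, C3, C4b, Cfb, Serping1, C3ar1 and C5ar1. All 9 were found, and all 9 passed the filter on low counts in both tissues. The 48 libraries come from C57BL/6 wild-type male mice and fall into 6 groups of 8. In each tissue an Old Rep group of 23 months had taken a Csf1r inhibitor for 5 days and then recovered for 7 days, an Old group of 23 months had vehicle, and a Young group of 3 months had vehicle. The first tissue is brain microglia, sorted as Cd11b+ and Cd45+ cells after dissociation of the brain, and the second is whole, undissociated spinal cord. The sort does not separate microglia from other cells of the myeloid lineage, and the sorted cells may therefore hold some of these. No group carries a transgene, nothing in the labels ties each library to its own animal, so the spread behind the p-values may in part be technical.

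Complement is a cascade of plasma and tissue proteins that tags targets for removal by phagocytes. C1q, built from the products of C1qa, C1qb and C1qc, starts the classical pathway, which runs through C4 to C3, while factor B (Cfb) joins C3b in the alternative pathway and amplifies it. Serping1 encodes the C1 inhibitor, and C3ar1 and C5ar1 encode the receptors for the fragments C3a and C5a. In brain, microglia are known as the main source of C1q, and C3 takes part in the removal of synapses.

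All 9 genes are protein-coding and lie on the minus strand of GRCm38. C1qb (chr4:136880129-136886187), C1qc (chr4:136889804-136893065) and C1qa (chr4:136895917-136898803) are immediate neighbours, with gaps of 3616 and 2851 bases between them. On chromosome 17 lie C4b (chr17:34728380-34743882), Cfb (chr17:34856374-34862518) and C3 (chr17:57203970-57228136). Serping1 is at chr2:84765387-84775444, C3ar1 at chr6:122847138-122856161 and C5ar1 at chr7:16246743-16259540, 2588 bases from C5ar2. Cfb overlaps the annotated gene Gm20547 on the same strand, and C4b has the close copy C4a. Reads of Cfb may therefore be ambiguous with Gm20547, and those of C4b may be split or shared with C4a.

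RefSeq promoter sequences (GRCm38.p6) were matched for 5 of the 9 genes. C1qb and C1qc are shown because the fold changes of these neighbours had the same sign in every comparison within a tissue, and C3 because it took another course in microglia. Each sequence runs 5′ to 3′ on the strand of the gene, from up to 250 bases before the RefSeq start, and bases inside the annotated gene were left out for C1qc. The windows are chr4:136886201-136886450 for C1qb, chr4:136893066-136893164 for C1qc and chr17:57228137-57228386 for C3. Capitals mark matches to the motifs searched.
C1qb: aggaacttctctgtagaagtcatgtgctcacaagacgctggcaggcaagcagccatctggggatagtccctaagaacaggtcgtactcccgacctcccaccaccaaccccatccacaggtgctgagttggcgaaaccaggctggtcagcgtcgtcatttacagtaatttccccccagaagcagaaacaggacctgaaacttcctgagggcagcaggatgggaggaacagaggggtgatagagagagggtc
C1qc: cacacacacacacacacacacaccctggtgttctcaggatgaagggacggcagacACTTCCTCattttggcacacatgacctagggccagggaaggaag
C3: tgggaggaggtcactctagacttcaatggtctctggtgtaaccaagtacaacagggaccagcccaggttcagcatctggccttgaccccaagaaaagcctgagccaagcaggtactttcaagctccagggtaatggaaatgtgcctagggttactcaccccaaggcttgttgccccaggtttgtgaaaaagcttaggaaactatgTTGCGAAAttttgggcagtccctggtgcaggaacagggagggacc
Both strands of the 250 bases before each RefSeq start were searched for 4 motifs: the PU.1 core (GAGGAAGT), the C/EBP motif (TTGCNNAA), the GAS element (TTCNNNGAA) and the TATA box (TATAAA). C1qc held the PU.1 core on the opposite strand, 195 to 188 bases before its start, as do 2.44% of 32851 promoters of the same length. C3 held the C/EBP motif, 45 to 38 bases before its start, as do 9.56% of promoters. C3ar1, not shown, held a TATA box 235 to 230 bases before its start, as do 12.4% of promoters, while C1qb and C5ar1 held none of the 4. The GAS element occurs in 7.02% of promoters and was not found in these windows.

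Total counts per library were 18741936 to 34496308 in microglia and 15909868 to 33004806 in cord. Cord Old Rep replicate 6 stood apart: it had 22326 genes detected and a summed level of 5 oligodendrocyte markers of 29255 CPM, against a group median of 16598 CPM, and it is left out in the alternatives given below. The 8 neutrophil markers in the sorted cells had a summed median of 1292 CPM in Old Rep, 4468 CPM in Old and 482 CPM in Young libraries. The corresponding medians of the 6 monocyte markers were 155, 391 and 72.8 CPM, and those of the 9 border macrophage markers were 121, 563 and 258 CPM. The 10 microglial markers made up a median of 48650, 48091 and 66293 CPM in the same 3 groups, and every one of them was detected. In cord the same 10 markers summed to a median of 434.2 CPM in Old Rep, 374 CPM in Old and 229 CPM in Young libraries. CPM here are TMM-scaled counts relative to the library total.

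**Figure D1:**
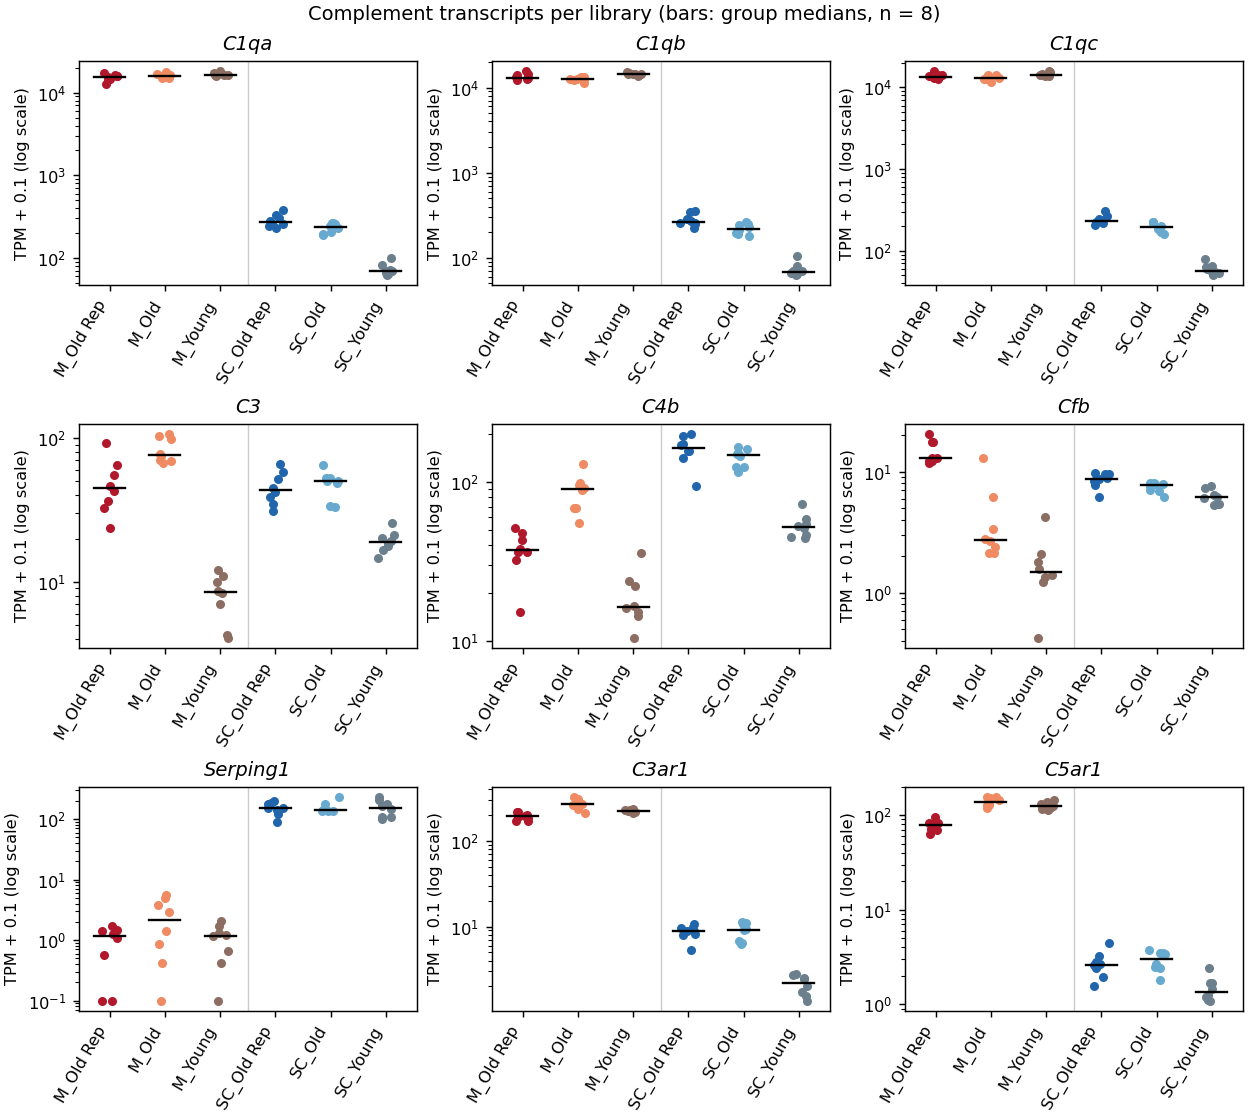
TPM plus 0.1 on a log axis for each of the 9 genes (points: libraries; bars: medians; n = 8 per group), with M for sorted microglia and SC for spinal cord. The C1q genes and both receptors are higher in all microglia libraries than in any cord library, and Serping1 is the reverse.

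Between genes, levels are compared per length, as the deposited TPM. In microglia the C1q genes stood far above the rest of the set. C1qa averaged 15248 ± 1392 TPM in Old Rep, 15979 ± 848 TPM in Old and 16727 ± 701 TPM in Young microglia (SD, n = 8 each), while C3ar1 averaged 194, 270 and 224 TPM and C5ar1 averaged 77.8, 139 and 126 TPM in the same order. C3, C4b and Cfb were lower, and Serping1 was near the limit of detection at 0.857, 2.41 and 0.977 TPM. Together the C1q genes took between 1.78% and 2.46% of all counts in every microglia library.

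In cord the order was different. C1qa averaged 285 ± 51.4 TPM in Old Rep, 231 ± 31.2 TPM in Old and 72.9 ± 12.4 TPM in Young cord (SD, n = 8 each), C4b averaged 160, 142 and 53.1 TPM, and Serping1 averaged 152, 156 and 155 TPM. C1q was thus the highest of the set in Old Rep and Old cord, whereas in Young cord Serping1 was highest. Mean TPM of C1qa in microglia was 53.5 times that in cord among Old Rep mice, 69.1 times among Old mice and 229.5 times among Young mice. Mean TPM of Serping1, in contrast, was 178, 64.8 and 159 times higher in cord than in microglia in the same order. C4b was higher in cord than in microglia under each condition, by 4.28, 1.62 and 2.76 times, and C3 was lower in microglia than in cord only among Young mice, at 8.05 against 19.1 mean TPM.

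In Old against Young microglia the central components rose and C1q did not pass the test. C3 rose 10.9-fold, C4b 4.73-fold, Cfb 2.80-fold and C3ar1 1.26-fold. These 4 of 9 members were called at an adjusted p under 0.05 (edgeR quasi-likelihood test, Benjamini-Hochberg adjustment over 14382 genes), and none was called lower. Of all genes tested, 11.0% were called higher and 10.7% lower. The median log2 fold change was 0.34 over the members and -0.01 over all genes.

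C3, the protein that every pathway converges on, ran from 146 CPM through a median of 170 to 263 CPM in Old microglia, against 8.40, 17.9 and 24.5 CPM in Young microglia. All Old libraries lay above all Young ones (log2 fold change 3.45, SE 0.23, adjusted p = 1e-12, edgeR). C4b, which forms the classical C3 convertase, had 146, 207 and 295 CPM as lowest, median and highest value in Old microglia and 25.2, 38.2 and 81.1 CPM in Young microglia. Its groups did not overlap either (log2 fold change 2.24, SE 0.21, adjusted p = 7.36e-10, edgeR), and such a gap upward was seen for 4.12% of all genes. For Cfb the values were 2.37, 2.98 and 16.8 CPM in Old microglia against 0.377, 1.55 and 4.55 CPM in Young microglia. The groups overlapped, and Old replicate 4 was far above the other Old libraries.

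The rise of Cfb had a log2 fold change of 1.49 with an SE of 0.38 and an adjusted p = 0.00429 in edgeR. Without Old replicate 4 it was 0.93 with an adjusted p = 0.0333, and limma-voom did not call it (1.32, adjusted p = 0.0566). The neutrophil, monocyte and border macrophage markers moved the same way as C3, C4b and Cfb, with 8 of 8, 6 of 6 and 6 of 9 of them rising. Of 12 interferon response genes, 11 of the 11 tested rose as well. Their summed median was 589 CPM in Old and 259 CPM in Young microglia. The part of all these markers and genes in the changes of C3, C4b and Cfb was not tested. C3ar1, the C3a receptor, had 399, 485 and 608 CPM in Old microglia and 349, 398 and 419.1 CPM in Young microglia, with overlap (log2 fold change 0.34, SE 0.08, adjusted p = 0.00128, edgeR).

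C1q in the same cells differed by less than the test could call. C1qa ran from 6017 through a median of 7371 to 8766 CPM in Old microglia, against 6486, 7350 and 8829 CPM in Young microglia. Its groups overlapped almost fully, with a log2 fold change of 0.01, SE 0.07 and adjusted p = 0.968 in edgeR. C1qb and C1qc had log2 fold changes of -0.12 and -0.07 with adjusted p-values of 0.214 and 0.563 (edgeR). On log2(TPM + 1), limma called C1qb lower at -0.20 with an adjusted p = 0.0321. Of the 10 microglial markers, 9 fell in the same comparison, with a median log2 fold change of -0.48.

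C5ar1 and Serping1 were not called either. C5ar1, the C5a receptor, had 132, 150 and 168 CPM in Old microglia and 108, 133 and 151 CPM in Young microglia. The log2 fold change was 0.20 with an SE of 0.08 and an adjusted p = 0.0561 in edgeR, and it was called under 7 of the other settings, such as DESeq2 size factors (adjusted p = 0.0215), and on leaving out any of Young replicates 2, 7 and 8 or Old replicate 3. Serping1 ranged from 0 to 4.15 CPM in Old microglia and from 0 to 1.51 CPM in Young microglia (log2 fold change 1.36, SE 0.89, adjusted p = 0.33, edgeR). A library with no Serping1 read was found once in each of these groups, and a count of 0 allows up to 0.126 CPM in the Old library and 0.106 CPM in the Young one, with counting error alone considered.

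**Figure D2:**
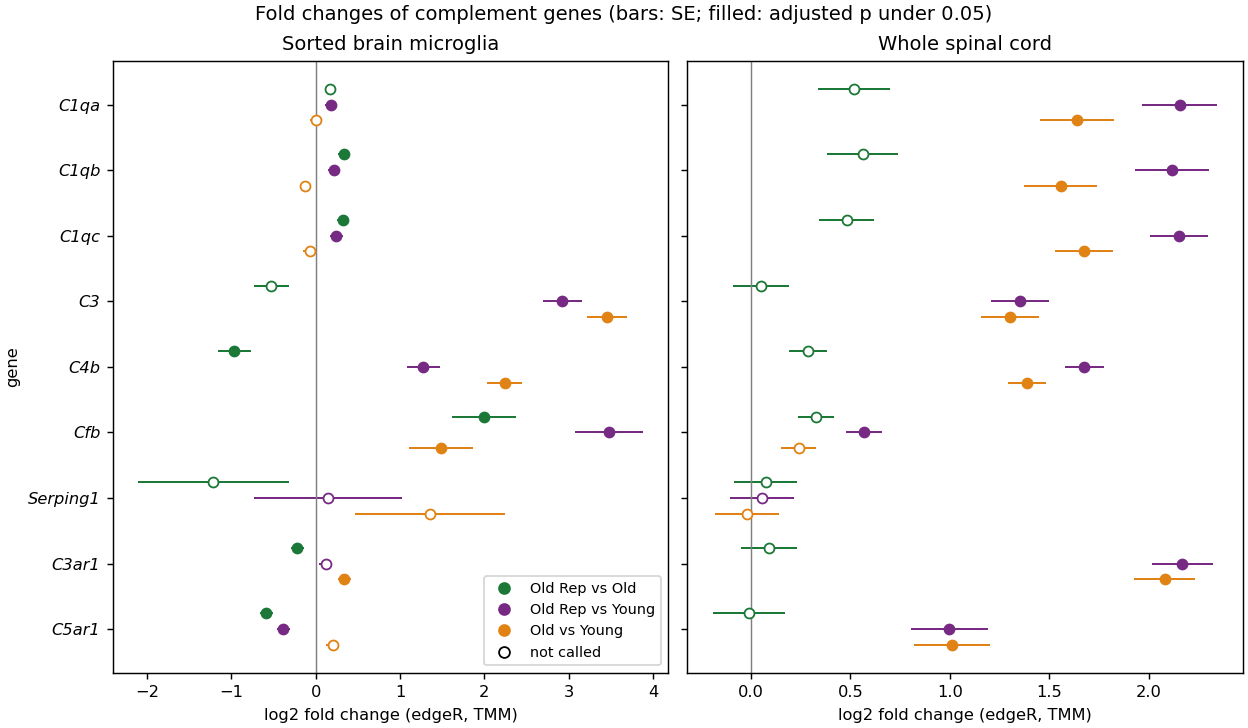
Log2 fold changes (x axis) of the 9 genes (y axis) in microglia (left) and cord (right) for 3 comparisons, with bars for the SE; filled points had an adjusted p under 0.05. In microglia C3 has the largest change with age at 3.45, whereas in cord C3ar1 has it at 2.08.

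In Old Rep against Old microglia the set split. Cfb rose 3.99-fold, C1qb 1.26-fold and C1qc 1.25-fold, while C4b, C5ar1 and C3ar1 fell, to 0.513, 0.667 and 0.860 of the Old level. That is 3 of 9 called higher and 3 called lower, where 9.05% of all genes were called higher and 7.20% lower (edgeR). The split depended on the scaling: total-count scaling gave 2 higher and 4 lower, and limma on log2(TPM + 1) gave 1 higher and 4 lower. The all-gene median was -0.04 under TMM, -0.21 under total-count scaling and -0.21 on log2(TPM + 1). The Old libraries are shared with the comparison against Young, as the Young libraries are between both comparisons that use them, so these fold changes are not independent.

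Cfb had 16.4, 17.9 and 31.4 CPM as lowest, median and highest value in Old Rep microglia, against 2.37, 2.98 and 16.8 CPM in Old microglia. The groups touched only through Old replicate 4. Its log2 fold change was 1.99 with an SE of 0.38 and an adjusted p = 0.000266 in edgeR, and 2.57 without that library. The 12 interferon response genes, measured beside it, summed to a median of 1114 CPM in Old Rep microglia and 589 CPM in Old microglia, 11 of the 11 tested rose, and their relation to Cfb was not tested.

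C4b ran the other way, with 46.1, 113 and 143 CPM in Old Rep microglia against 146, 207 and 295 CPM in Old microglia. Every Old Rep library lay below every Old one (log2 fold change -0.96, SE 0.20, adjusted p = 0.000689, edgeR). C5ar1 also separated, at 87.9, 100.3 and 124 CPM in Old Rep microglia and 132, 150 and 168 CPM in Old microglia (log2 fold change -0.58, SE 0.08, adjusted p = 1.44e-06, edgeR). Such a gap downward was seen for 0.966% of all genes. In the same comparison 8 of 8 neutrophil, 9 of 9 border macrophage and 4 of 6 monocyte markers fell, and their part in these falls was not tested.

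C3 had 65.4, 121 and 234 CPM in Old Rep microglia, against 146, 170 and 263 CPM in Old microglia. The groups overlapped, and the log2 fold change of -0.52 with an SE of 0.21 was not called by edgeR (adjusted p = 0.0921). It was called under limma-voom (-0.60, adjusted p = 0.0176), under total-count scaling (-0.69, adjusted p = 0.0213), by limma on log2(TPM + 1) (-0.84, adjusted p = 0.00515) and by edgeR without Old Rep replicate 3 (-0.69, adjusted p = 0.0143). C3ar1 had 360, 420 and 502 CPM in Old Rep microglia and 399, 485 and 608 CPM in Old microglia. Its call (log2 fold change -0.22, SE 0.08, adjusted p = 0.0482, edgeR) was lost in 12 of 16 fits that left out 1 library, and held only without Old replicate 8 or Old Rep replicate 1, 5 or 7, where the adjusted p over all 16 ranged from 0.0207 to 0.169.

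C1qb had 6470, 7399 and 8050 CPM in Old Rep microglia against 4728, 5839 and 6570 CPM in Old microglia. The groups overlapped at their edges (log2 fold change 0.33, SE 0.07, adjusted p = 0.000482, edgeR). C1qc was similar at 7221, 7755 and 8611 CPM in Old Rep microglia and 5127, 6201 and 7375 CPM in Old microglia, with a log2 fold change of 0.32, SE 0.07 and adjusted p = 0.00198 in edgeR. On log2(TPM + 1) these differences were 0.09 and 0.08 with adjusted p-values of 0.333 and 0.408 in limma, and total-count scaling left C1qc uncalled at 0.16 (adjusted p = 0.054). C1qa, at 0.18 with an SE of 0.07 and an adjusted p = 0.0897, was not called by edgeR, but was called without Old replicate 1 (0.22, adjusted p = 0.0267). The neutrophil and border macrophage markers fell in all 8 and all 9 genes, and 4 of 6 monocyte markers fell. Their part in the changes of C1q was not tested either.

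The C1q chains can also be set against one another within a library. The TPM ratio of C1qa to C1qb had medians of 1.12 in Old Rep, 1.27 in Old and 1.14 in Young microglia, with ranges of 1.04 to 1.27, 1.165 to 1.34 and 1.095 to 1.22. Such ratios within a library do not depend on the scaling between libraries. The C1qa to C1qb ratio had its highest median in Old microglia, but the Old range overlapped those of both other groups. In cord the C1qa to C1qb ratio was 1.001 in Old Rep, 1.055 in Old and 0.991 in Young libraries. The C1qc to C1qb ratio in cord had medians of 0.899 in Old Rep, 0.881 in Old and 0.803 in Young libraries, with overlapping ranges of 0.687 to 0.920, 0.865 to 0.939 and 0.761 to 0.942, and the lowest value belongs to Old Rep replicate 6. In microglia the same ratio had medians of 1.01 in Old Rep, 1.03 in Old and 0.9999 in Young libraries. None of these ratios was tested.

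Set against Young microglia, Old Rep microglia had a higher level of the central components and of Cfb. C3 was 7.599-fold higher and C4b 2.42-fold higher, and Cfb was 11.2-fold higher. The edgeR test called 6 of 9 members higher and 1 lower, beside 16.1% and 16.5% of all genes. Total-count scaling called 3 higher and 1 lower, with an all-gene median of -0.19 against -0.06 under TMM, and limma on log2(TPM + 1) called 3 higher and 2 lower with a median of -0.28.

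The log2 fold changes were 2.93 for C3 (SE 0.23, adjusted p = 8.94e-12), 1.28 for C4b (SE 0.20, adjusted p = 6e-06) and 3.48 for Cfb (SE 0.40, adjusted p = 3.09e-08) in edgeR. The values already given show no overlap for C3 and Cfb, a gap upward shared by 7.20% of genes, while C4b overlapped. C5ar1 fell, with a log2 fold change of -0.38, SE 0.08 and adjusted p = 0.000168 in edgeR. C1qa, C1qb and C1qc rose by 0.18, 0.21 and 0.25 on the log2 scale (adjusted p = 0.0451, 0.0134 and 0.00808, edgeR), but their sign turned on log2(TPM + 1), at -0.14, -0.11 and -0.07, and none of these 3 was called there or under total-count scaling. The C1qa call was also lost in 8 of 16 fits without 1 library (Old Rep replicates 1, 3, 7 and 8 and Young replicates 3, 4, 6 and 8). C3ar1 and Serping1 were not called (0.12 and 0.15, adjusted p = 0.258 and 0.929, edgeR), and C3ar1 was called lower on log2(TPM + 1) at -0.21. In the same comparison 8 of 8 neutrophil, 5 of 6 monocyte and 11 of 11 interferon response markers rose, while 7 of 9 border macrophage and 8 of 10 microglial markers fell, and their part in these changes was not tested.

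In whole spinal cord age moved most of the set upward. C3ar1 rose 4.22-fold, C1qa, C1qb and C1qc rose 3.11-fold, 2.94-fold and 3.19-fold, C4b 2.62-fold, C3 2.47-fold and C5ar1 2.01-fold in Old against Young cord. These are 7 of 9 members, none fell, and 4.88% of the 18271 genes tested were called higher and 1.26% lower (edgeR). The members had a median log2 fold change of 1.39, against -0.01 over all genes. In a bulk tissue a larger number of cells of one type and more RNA per cell cannot be told apart.

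C1qa had 72.2, 88.0 and 98.8 CPM as lowest, median and highest value in Old cord, against 23.9, 26.0 and 38.0 CPM in Young cord. C1qb had 68.4, 80.0 and 96.7 CPM in Old cord and 23.2, 25.4 and 39.2 CPM in Young cord, and C1qc had 63.6, 74.9 and 88.4 CPM against 20.0, 22.2 and 31.5 CPM. No Old library of the 3 genes reached down to a Young one, with log2 fold changes of 1.64 (SE 0.19), 1.56 (SE 0.18) and 1.67 (SE 0.14) and adjusted p-values of 8.3e-07, 1.39e-06 and 8.85e-09 in edgeR.

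C3 had 60.5, 89.7 and 116 CPM in Old cord and 26.9, 34.6 and 46.4 CPM in Young cord. C4b had 230, 288 and 328 CPM in Old cord against 88.0, 105 and 146 CPM in Young cord. Both were separated between the groups, with log2 fold changes of 1.303 (SE 0.14, adjusted p = 5.79e-07) and 1.39 (SE 0.10, adjusted p = 2.61e-10) in edgeR. C3ar1 had 9.21, 13.4 and 16.2 CPM in Old cord and 1.98, 3.20 and 4.03 CPM in Young cord, again without overlap (log2 fold change 2.08, SE 0.15, adjusted p = 6.4e-10, edgeR). In all, 6 members showed such a gap upward, as did 2.45% of all genes.

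C5ar1 was the rarest member in cord, with 1.54, 2.59 and 3.26 CPM in Old cord against 0.885, 1.13 and 2.09 CPM in Young cord. The groups overlapped through Young replicate 1 (log2 fold change 1.01, SE 0.19, adjusted p = 0.000816, edgeR). Serping1 was level between the groups within the spread, at 86.1, 89.9 and 147 CPM in Old cord and 66.0, 97.7 and 152 CPM in Young cord (log2 fold change -0.02, SE 0.16, adjusted p = 0.981, edgeR). Cfb, at 0.24 with an SE of 0.09, was not called by edgeR (adjusted p = 0.149), but it was called under total-count scaling (0.27) and lay at the threshold without Young replicate 1 (0.29, adjusted p = 0.05).

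The microglial markers rose in the same comparison, 8 of 10 of them, with a median log2 fold change of 0.76. The cord counts were therefore also scaled so that the average of these 10 markers was held level. On that scale C1qa, C1qb and C1qc were still higher in Old cord by 0.89, 0.82 and 0.93 on the log2 scale, C3ar1 by 1.31, C4b by 0.63 and C3 by 0.55, with adjusted p-values in edgeR between 1.37e-05 for C3 and 1.54e-09 for C1qc. C5ar1 was not called (0.24, SE 0.20, adjusted p = 0.258, edgeR), although it was called without Young replicate 1 (0.42, adjusted p = 0.0333). Cfb and Serping1 fell relative to the markers by 0.53 and 0.80.

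This scaling shifts the median of all genes to -0.76, so that 1.29% of genes were called higher and 88.7% lower, beside which Cfb and Serping1 stood at -0.53 and -0.80. Of the members, 6 were called higher and 2 lower, and the same counts were given by 5 broad markers alone and by 5 homeostatic markers alone. The markers are not constant either: 9 of these 10 genes fell with age in sorted brain microglia.

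**Figure D3:**
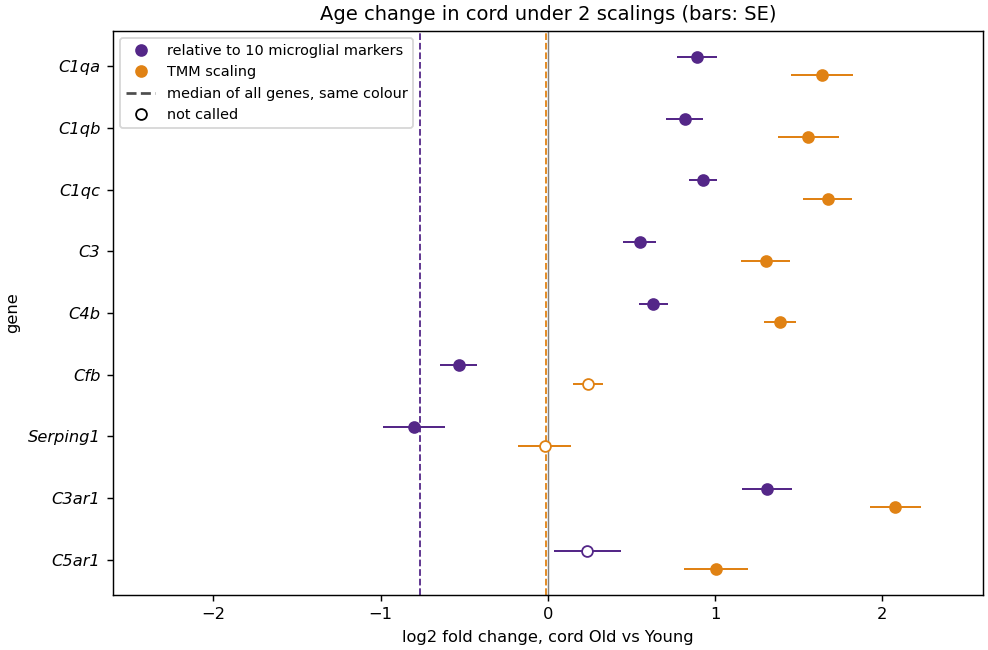
Log2 fold change of Old against Young cord (x axis) for each gene (y axis) with TMM scaling and with the 10 microglial markers held level; bars are SE, open points were not called, and dashed lines mark the median of all genes on each scale. For C1q, C3, C4b and C3ar1 the value relative to the markers is smaller than under TMM but above 0.

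In Old Rep against Old cord no member was called. Of all genes, 0.148% were called, each of them higher (edgeR), and none of the 9 members was called by edgeR, DESeq2, limma-voom or limma on log2 TPM. An unadjusted p under 0.05 was found for 5 members in edgeR, namely C1qa, C1qb, C1qc, C4b and Cfb. C1qa had 85.7, 100.9 and 274 CPM in Old Rep cord against 72.2, 88.0 and 98.8 CPM in Old cord. The highest value belongs to Old Rep replicate 6, and the next highest is 129 CPM, in Old Rep replicate 3. As deposited TPM these libraries were closer, at 378 and 334 TPM. Interferon response genes rose in the same comparison, 7 of the 11 tested, and their part was not tested.

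The log2 fold changes were 0.52 for C1qa (SE 0.18), 0.56 for C1qb (SE 0.18) and 0.48 for C1qc (SE 0.14), with adjusted p-values of 0.681, 0.488 and 0.347 in edgeR. Without Old Rep replicate 6 they were 0.24, 0.30 and 0.32. Cfb had 7.45, 8.61 and 11.2 CPM in Old Rep cord and 5.92, 7.18 and 7.67 CPM in Old cord (log2 fold change 0.33, SE 0.09, adjusted p = 0.271, edgeR). C3, C3ar1 and C5ar1, at 0.05, 0.09 and -0.01, and Serping1, at 0.07, had adjusted p-values of 0.821 to 0.986 in edgeR. With the microglial markers held level no member was called either, with 0.0164% of all genes called and 2 members at an unadjusted p under 0.05 in edgeR.

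**Figure D4:**
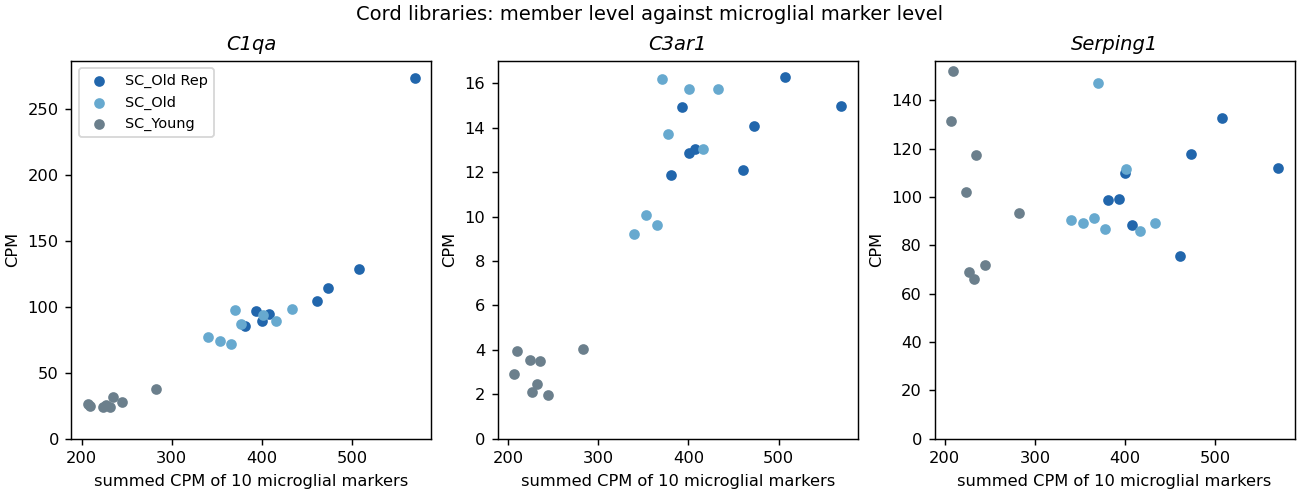
Level of C1qa, C3ar1 and Serping1 in CPM (y axes) against the summed CPM of 10 microglial markers (x axes) in the 24 cord libraries. Old Rep replicate 6 is the C1qa point at 274 CPM, and the Young libraries lie at the low end of both axes for C1qa and C3ar1.

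Old Rep cord differed from Young cord in 8 of 9 members, all higher, beside 7.28% of genes called higher and 2.78% lower (edgeR). C1qa, C1qb and C1qc were 4.45-fold, 4.34-fold and 4.45-fold higher, C3ar1 4.50-fold, C4b 3.19-fold, C3 2.56-fold and C5ar1 1.997-fold. Cfb was also called, at 1.48-fold (log2 fold change 0.57, SE 0.09, adjusted p = 6.6e-05, edgeR), with 7.45, 8.61 and 11.2 CPM in Old Rep cord against 5.09, 5.76 and 7.42 CPM in Young cord. Its groups were separated by a narrow gap, and 7 members in all showed a gap upward, against 2.96% of all genes. Without Old Rep replicate 6 the log2 fold changes of C1qa, C1qb and C1qc were 1.88, 1.87 and 1.99. Serping1 was not called (0.05, SE 0.16, adjusted p = 0.851, edgeR). With the microglial markers held level, 6 members were higher and 2 lower than in Young cord, where 1.28% of genes were called higher and 92.5% lower (edgeR) around a median of -0.96. C1qa, C1qb and C1qc stood at 1.12, 1.09 and 1.15 on that log2 scale, C3ar1 at 1.19, C4b at 0.69 and C3 at 0.37, while Cfb was at -0.43 and Serping1 at -0.96. With 5 broad markers C3 was not called, and with 5 homeostatic markers Cfb was not.

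Whether age acted unequally in the 2 sample types was tested by an interaction over all 48 libraries. Sorted cells and whole tissue also differ in organ, dissociation and RNA extraction, so these factors cannot be told apart. The labels leave it unsaid whether microglia and cord of one number came from one mouse, and the fit treats all libraries as independent. The age effect in microglia minus that in cord was negative for C1qa, C1qb and C1qc (-1.79, -1.84 and -1.91 on the log2 scale), C3ar1 (-1.91) and C5ar1 (-0.97), with adjusted p-values in edgeR of 2.31e-09, 4.37e-10, 8.52e-13, 1.13e-12 and 0.000114. It was positive for C3 (1.99, SE 0.29, adjusted p = 1.36e-06) and C4b (0.71, SE 0.25, adjusted p = 0.0367). That is 7 of 9 members, where 20.5% of 19110 genes were called, and the all-gene median of this contrast was -0.15. In the same contrast 10 of 10 microglial markers were called lower, with a median of -1.31. Called higher were 6 of 6 monocyte, 8 of 8 neutrophil and 3 of 9 border macrophage markers, while 1 border macrophage marker was lower. The part of cell shares in the differences of the members was not tested. The C4b call was lost in 10 of 32 fits without 1 library (adjusted p up to 0.0739; Old microglia replicates 3 and 4, Young microglia replicates 1, 3, 5 and 6, Old cord replicates 5, 6 and 8, Young cord replicate 5) and on log2(TPM + 1). Cfb was not called (1.08, SE 0.43, adjusted p = 0.0651), but was called without Young microglia replicate 4 (1.41, adjusted p = 0.00996) or any of Old microglia replicates 1, 5, 6, 7 and 8. Cfb was also called by edgeR with DESeq2 size factors (1.24, adjusted p = 0.043) or total-count scaling (1.22, adjusted p = 0.0465). The DESeq2 Wald test called it too (1.24, adjusted p = 0.0266). Without Old microglia replicate 4 its value was 0.51 with an adjusted p = 0.326.

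For repopulation the difference between tissues was called for 3 members, beside 11.0% of all genes. The effect in microglia minus that in cord was -1.28 for C4b (SE 0.25, adjusted p = 0.000904), -0.61 for C5ar1 (SE 0.18, adjusted p = 0.0235) and 1.64 for Cfb (SE 0.42, adjusted p = 0.0104) in edgeR, and the all-gene median was -0.10. Limma-voom did not call C5ar1 (adjusted p = 0.24), nor did edgeR without cord Old Rep replicate 3 (-0.47, adjusted p = 0.0619), and Cfb was 2.21 without Old microglia replicate 4. The C1q genes were not called, at -0.37, -0.26 and -0.19 for C1qa, C1qb and C1qc, and these values came to -0.04, 0.06 and 0.04 without cord Old Rep replicate 6.

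The genes whose log2 CPM ran most like the members over the 24 libraries of a tissue differed between the tissues. In cord, C1qa was closest to C1qb (Pearson r = 0.995), Tyrobp (0.994), an adaptor of myeloid receptors, and C1qc (0.993), while C1qc was closest to Tyrobp and Laptm5. C3 was closest to Cd53 (0.976) and Vsir (0.973), C4b to Mpeg1 (0.991) and Cd68 (0.984), C3ar1 to Ms4a7 (0.988), and Cfb to Ifi30 (0.937). Serping1 ran with Nbl1 (0.911), Mxra8 (0.904) and Gpc3 (0.901). These r values include the differences between the 3 groups, and after removing group means they were 0.975 for C1qa with Tyrobp, 0.873 for C3 with Cd53 and 0.853 for C4b with Mpeg1.

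In microglia the closest gene to each C1q gene was another C1q gene, with r = 0.956 for C1qb and C1qc and 0.919 for C1qa and C1qc. C3 was closest to Fgr (0.975), Cd22 (0.958) and Cxcr4 (0.957), and C4b to Sema4a (0.915), but after removing group means these r values were 0.675, 0.578, 0.690 and 0.619. Serping1 ran with Egfl8 (0.872) and Ushbp1 (0.853), and kept r = 0.872 and 0.866 after removing group means. Cfb was closest to the ribosomal protein genes Rpl4 (0.925) and Rpl5 (0.922), with r = 0.538 and 0.522 after removing group means. C3ar1 was closest to Lipa (0.785) and C5ar1 to Cd209g (0.882), with r = 0.645 and 0.335 after removing group means. Libraries of one tissue share their scaling, and the r values are descriptions without a test.

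The set of 48 other complement genes gives the wider pathway, of which 25 passed the filter in microglia and 36 in cord. In Old against Young microglia 7 rose and 1 fell (edgeR; 11.0% of all genes rose and 10.7% fell). Itgax, a subunit of complement receptor 4, rose 9.17-fold (log2 fold change 3.20, SE 0.13, adjusted p = 1.97e-18), with 231, 274 and 315 CPM in Old microglia against 23.97, 29.5 and 36.7 CPM in Young microglia. Masp1, a lectin pathway protease, rose by 1.51 (adjusted p = 1.45e-11), Colec12, a scavenger receptor of the collectin family, by 1.59 and Itgb2, the shared chain of complement receptors 3 and 4, by 0.39. C5ar2, the second C5a receptor, fell by 0.29 (adjusted p = 0.0254), and the other called rises were Fcnb, Cfp and Cd93.

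In Old Rep against Old microglia 4 of the 25 rose and 6 fell under TMM (9.05% and 7.20% of all genes, edgeR), 2 rose and 8 fell under total-count scaling, and 0 rose and 12 fell on log2(TPM + 1) in limma. Among the rises under TMM were Lrp1, Itgam and Itgb2, at 0.41, 0.34 and 0.22 on the log2 scale. Among the falls were Fcna, a ficolin of macrophages, by 1.92 (adjusted p = 0.000188, edgeR), Cd93 by 1.25, Cd55, a membrane inhibitor of the convertases, by 1.67 and C5ar2 by 0.34. Fcna and Cd55 were at median levels of 1.17 and 0.782 CPM in Old Rep microglia, against 5.76 and 2.84 CPM in Old microglia. Border macrophage markers fell in the same comparison, and their part in the fall of Fcna was not tested. Against Young microglia 10 of the 25 rose and 3 fell, beside 16.1% and 16.5% of all genes (7 and 6 under total-count scaling, 4 and 7 on log2(TPM + 1)), led by Itgax at 2.89 and Masp1 at 1.72.

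In cord 6 of the 36 other genes rose with age and 1 fell, beside 4.88% and 1.26% of all genes (edgeR). Itgax rose 19.4-fold, with 9.83, 12.6 and 17.1 CPM in Old cord against 0.202, 0.528 and 1.22 CPM in Young cord. Itgb2 rose 3.19-fold and Itgam, the partner of Itgb2 in complement receptor 3, rose 1.84-fold. C1ra, encoding the C1r protease that C1q carries, rose 1.61-fold (adjusted p = 0.000951) and C1s1, encoding C1s, rose 1.65-fold (adjusted p = 0.00132); both have close copies in the mouse genome, C1rb and C1s2, so that reads may be shared. Masp1 fell by 0.22 (adjusted p = 0.00863), the opposite direction to microglia, and the interaction of age and tissue was 1.58 (SE 0.13, adjusted p = 3.83e-13, edgeR).

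In Old Rep against Old cord none of the 36 was called by any tool, with 4 at an unadjusted p under 0.05 in edgeR (Fcna, Cfd, Clu and C5ar2). Against Young cord 8 rose and 1 fell, beside 7.28% and 2.78% of all genes (edgeR), with Itgax at 4.09, Itgb2 at 1.85, Itgam at 1.04 and C1ra at 0.89 on the log2 scale. Of the terminal components, 1 of 6 genes (C8g) passed the filter in microglia and 2 of 6 in cord, and none was called in the 6 comparisons within a tissue.

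**Figure D5:**
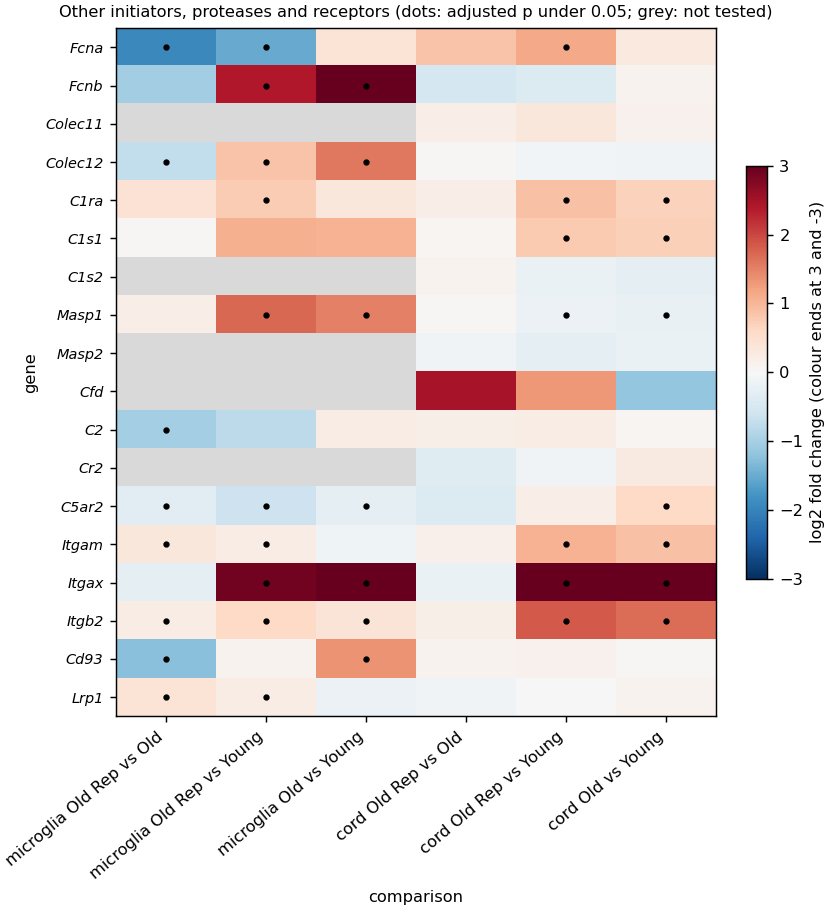
Log2 fold changes (colour) of the other initiators, proteases and receptors of complement that were tested in at least 1 tissue (rows) in 6 comparisons (columns), with dots for adjusted p under 0.05 and grey for genes below the count filter. Itgax and Itgb2 carry dots in the age comparisons of both tissues, whereas the Old Rep against Old column of cord holds no dot.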

How the data were processed

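RNA was poly(A)-selected and made into unstranded TruSeq libraries, per the labels' protocols. STAR 2.5.2b and the build GRCm38.p5 are named in the submitters' processing notes, and no source used here names the counter or the annotation. The authors deposited a whole-number count per gene, a TPM value and gene lengths in bases; the FPKM values were not used. Dividing counts by the deposited lengths and rescaling gave the deposited TPM in all genes and libraries.

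Counts were filtered with filterByExpr (minimum count 10, minimum total 15), scaled by TMM and tested within each tissue over its 3 groups with edgeR 4.0.16 (R 4.3.3), by the quasi-likelihood test with Benjamini-Hochberg adjustment over all genes tested. The threshold was an adjusted p of 0.05, and the SE of a log2 fold change is its size divided by the square root of F. Interactions used all 48 libraries. Alternatives were DESeq2 1.42.0, limma 3.58.1 (voom, and log2 TPM with pseudocounts of 1 and 0.1), other scalings and filters, a replicate block and leaving out libraries. The scripts were tested on simulated data. Total counts were 15909868 to 34496308 per library, and limits for a count of 0 cover counting error only. Pairs of libraries in a group differed by more than sampling noise. Sequences and motif shares are from RefSeq, and gene positions from GENCODE. The rule for named genes took all 9 members, up to 4 called rises and up to 4 called falls of the 48 other complement genes with the smallest adjusted p in each comparison, and the 3 tested genes most correlated with each member; further called genes of the 48, and those at an unadjusted p under 0.05, were named after their values were seen. The members and lists were chosen with earlier results of these data known. Within a tissue, same-numbered libraries did not consistently deviate together; this was not examined between tissues. A called gene of the 48 is not reported here.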

Additional observations from a re-analysis of the deposited data

Results flagged for a closer look

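Among 54 groups of 8 libraries, 10 held 1 library far above the rest, judged by its gap to the next library against the range. For independent groups of normally distributed values this rule flags about 1 in 20, counting both ends. CPM need not be so distributed, and several of the 10 flags share a library, so that share is only a rough guide. Of the 10, C1qa in cord Old Rep replicate 6 was at 274 CPM with the next library at 129 CPM, C1qb at 255 CPM against 132 CPM, and C1qc at 185 CPM against 125 CPM. As deposited TPM the gap to Old Rep replicate 3 was smaller, at 378 against 334 TPM for C1qa and 359 against 347 TPM for C1qb. In Young microglia replicate 7, C1qa was at 8829 CPM and C1qb at 7372 CPM. Cfb was at 16.8 CPM in Old microglia replicate 4 and at 4.55 CPM in Young microglia replicate 4. C4b was at 146 CPM in Young cord replicate 5, C5ar1 at 2.09 CPM in Young cord replicate 1, and Serping1 at 147 CPM in Old cord replicate 3.

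The effect of age differed between microglia and cord for 7 of 9 members in the test of the interaction (edgeR). Of all genes, 20.5% were called in that contrast, with a median of -0.15. The difference, microglia minus cord, was -1.79 for C1qa, -1.84 for C1qb, -1.91 for C1qc, -1.91 for C3ar1 and -0.97 for C5ar1 on the log2 scale, and 1.99 for C3 and 0.71 for C4b. In that contrast 10 of 10 microglial markers were also lower, while 6 of 6 monocyte and 8 of 8 neutrophil markers were higher. The effect of repopulation differed for 3 members, at -1.28 for C4b, 1.64 for Cfb and -0.61 for C5ar1. Of all genes, 11.0% were called there, with a median of -0.10.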

How the results depend on the processing

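Of the 9 members, C1qa, C1qb, C1qc and C3ar1 changed sign in Old Rep against Young microglia, at -0.14, -0.11, -0.0725 and -0.209 on log2(TPM + 1) and -0.14, -0.11, -0.0725 and -0.210 on log2(TPM + 0.1). In that comparison total-count scaling called 4 members, against 7 under TMM. The cause was not tested. Leaving out 1 library gave 4 to 5, 5 to 6 and 6 to 7 members called in microglia for Old against Young, Old Rep against Old and Old Rep against Young, and 7 to 8, 0 to 0 and 8 to 8 in cord. For the other complement genes the ranges were 7 to 9, 8 to 13 and 11 to 14 in microglia and 6 to 7, 0 to 0 and 6 to 9 in cord. For the interactions of age and of repopulation they were 6 to 8 and 2 to 3, and relative to microglial markers 8 to 9, 0 to 0 and 8 to 8. Correlations of same-numbered libraries within a tissue ran from -0.493 to 0.431, which cannot decide whether the replicate numbers pair the libraries. With the replicate block, 5, 7 and 6 members were called in microglia and 7, 0 and 8 in cord. Shares of all genes called are given above for the main fits only. The counts under other settings therefore cannot tell a change in the members from one in all genes. Serping1 in microglia had no read in 4 of 24 libraries, and its SE was the largest of the members.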
